A study of Homo sapiens with 12 samples.

Results

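The comparison described here is that of U87MG cells kept in hypoxia with acidosis against the same cells in normoxia. U87MG is an established human glioblastoma line grown in serum-containing medium, and every culture in the comparison was held for 24 h before lysis. The stressed cells had 1% oxygen at pH 6.0, and the control cells had normoxia at pH 7.4, for which the sources used here give no oxygen percentage. Lysates were separated by ribosome density into a monosome, an oligosome and a polysome fraction, and the RNA of each fraction was sequenced as 1 stranded mRNA library. The comparison therefore rests on 6 libraries of the 12 in the series, with 1 library per condition and fraction. It has no replicates, so sizes and the agreement of the 3 fractions are given, and no test was run. A locus was compared when its mean FPKM (fragments per kilobase and per unit of library size) over these 6 libraries was at least 1. This held for 12370 of 55598 loci, of which 9016 name 1 gene, 2281 name several and 1073 name none.

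Cells short of oxygen stabilise the hypoxia-inducible factors, which bind a short DNA element and turn on genes for glucose uptake, glycolysis, pH control, vessel growth and matrix remodelling. Low oxygen and low extracellular pH both also lower the activity of mTORC1, the kinase complex that couples nutrient and oxygen supply to protein synthesis. mRNAs that begin with a 5′ terminal oligopyrimidine (TOP) tract, chiefly those of ribosomal proteins and translation factors, are the class most dependent on mTORC1 and leave polysomes when it is inhibited. In a density gradient, mRNAs carrying many ribosomes sediment with the polysomes, whereas free mRNAs and those with a single ribosome stay in the monosome fraction.

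A change is the log2 ratio of hypoxia with acidosis over normoxia, each FPKM raised by 1, minus the median over the compared loci. It was computed per fraction and for the unweighted mean FPKM of the 3 fractions. The mean of a locus was called higher or lower if it was past 2-fold and no fraction went against it. Translation efficiency (TE) is the log2 ratio of polysome over monosome FPKM, each raised by 1, and a TE change was called at 2-fold. FPKM is a share of a library, so more RNA of a gene cannot be told apart from less RNA of other genes, nor fewer translating cells from less RNA per cell.

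The summed FPKM ran from 454424 in the normoxia polysome library to 2164040 in the stressed monosome library. The 100 most abundant loci took 38.0% and 71.2% of these sums. Relative depth was taken from the ratios of low FPKM values between libraries. It was 0.626 for the stressed monosome library against 1 for the normoxia monosome library, and 1.68 to 2.2 for the other 4. Per kilobase of transcript, 1 FPKM stood for about 4.91 fragments in the shallowest library and 17.2 in the deepest, so low values in the monosome fraction of the stressed cells are the least precise. Of 15 markers of glioma cells and astrocytes, VIM reached a mean of 7554 FPKM, while GFAP, the defining astrocyte filament, stood at 0.0170 FPKM, and S100B and AQP4 were listed at 0. SLC1A3 was the only other one to pass the filter at its own locus, at 3.30 FPKM, and was lower under stress. CD44 (889 FPKM), PDGFRA (8.12) and EGFR (6.55) share their loci with other genes. The remaining markers, among them NES and SOX9, were below 1 FPKM. Of 22 markers of neurons, oligodendrocytes, microglia, endothelium and epithelium, 5 passed the filter at loci of their own (SNAP25, GAD1, EPCAM, KRT18 and KRT8). The locus of CD68, a macrophage marker, names several genes and is not counted, at a mean of 798 FPKM. The defining markers MAG, AIF1, CX3CR1 and CLDN5 were listed at 0 in all 6 libraries. AIF1 is named on 6 loci, and how reads shared between loci were counted is not given in the sources used here. Of further neuronal markers, RBFOX3 stood at 8.73e-05 FPKM and the locus of SYT1, which names several genes, at 0.922 FPKM.

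The fractions differed in how far they moved. In the monosome fraction, 2622 loci (21.2%) were at least 2-fold higher and 1975 (16.0%) at least 2-fold lower. The oligosome fraction held 2133 (17.2%) and 1759 (14.2%), and the polysome fraction 1798 (14.5%) and 1592 (12.9%). Neighbouring fractions followed each other more closely than distant ones. Across the 12370 loci, which share the libraries and are not independent, the correlation of the changes was 0.651 between monosome and oligosome, 0.610 between oligosome and polysome, and 0.359 between monosome and polysome. All 3 fractions lay above the median change at 3467 loci and below it at 3599.

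In the mean of the fractions, 1577 loci (12.7%) were called higher and 1681 (13.6%) lower. This split depends on the scaling. Without centring it was 1823 higher and 1209 lower. The submitters' factors for the RNA in each fraction move the median change by -0.45 on the log2 scale. With these factors and no centring, it was 1053 higher and 2549 lower. All changes below are relative to the median locus.

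The hypoxia targets had the highest median of the lists. Of 31 genes on the list, 25 were measured, 22 of them were called higher and none lower, against 12.7% of all loci called higher. Their median change was 1.77 in the monosome, 2.43 in the oligosome and 2.49 in the polysome fraction, and 2.42 in the mean. All 25 lay above the median locus in the mean and in the polysome fraction, and 23 did in the monosome fraction. HIF1A and LDHA share their loci with other genes and are not counted.

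The hypoxia-inducible factors bind the core ACGTG or GCGTG. Of the 25 measured targets, 15 matched a single start in the RefSeq promoter table (GRCh38.p14), and 14 of these 15 held 1 of these cores, on either strand, between 250 bases before and 50 after the start. The cores are short, and 48.4% of all 35116 promoters in the table and 66.6% of those of the 4497 compared coding genes with a single start held one. ACGTG alone stood in 10 of 15 target promoters and in 28.4% of the compared coding genes. A match describes the letters and not an occupied site. The windows that follow are the 30 bases around the core nearest the start in genes whose values are given below, with every core within the window in capitals. The palindrome CACGTG holds ACGTG once on each strand.
PPP1R3C: agggatcgggtCACGTGcttgggagcagat
CA9: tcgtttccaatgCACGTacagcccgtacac
ADM: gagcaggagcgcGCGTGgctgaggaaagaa
DDIT4: ggcgcagagaagGCGTGgcctcgccgcgct
FAM162A: caccgcgtcgcgCACGCcccgccccccggc
IGFBP3: cgccgttccgggGCGTGtcctgggccaccc
These lie at chr10:91633098-91633127 on the minus strand, chr9:35673898-35673927 on the plus strand, chr11:10304960-10304989 (plus), chr10:72273859-72273888 (plus), chr3:122384134-122384163 (plus) and chr7:45921310-45921339 (minus). The core was 18 bases from the start in CA9 and 101 bases from it in ADM. The 250 bases before the start held 4 cores in PPP1R3C and FAM162A and none in SLC2A1 or in F3. IGFBP3 and F3 are not on the target list and are among the loci with the largest increases.

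PPP1R3C, whose product brings protein phosphatase 1 to glycogen, had the largest increase of the genes named here. It measured 10.3, 7.98 and 14.7 FPKM in the monosome, oligosome and polysome libraries of normoxia, and 506, 482 and 558 FPKM in those of hypoxia with acidosis. The 3 stressed libraries lay close together and far above the 3 controls, at 40.4-fold in the mean. LOX, the enzyme that cross-links collagen, went from 5.87, 2.59 and 5.21 FPKM to 145, 113 and 237 FPKM, which was 28.0-fold. SLC2A1, the glucose transporter GLUT1, went from 11.2, 10.4 and 12.1 FPKM to 94.2, 119 and 243 FPKM. It was 11.7-fold higher, with the polysome library the highest of the 6. NDRG1, a well-known hypoxia marker, went from 59.5, 41.3 and 103 FPKM to 354, 796 and 2118 FPKM.

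Secreted signals and pH enzymes of the list were higher too. VEGFA, the vascular growth factor, went from 129, 81.6 and 125 FPKM to 321, 320 and 546 FPKM, 3.29-fold in the mean. ADM, the vasodilator peptide adrenomedullin, went from 40.6, 32.8 and 69.9 FPKM to 171, 360 and 701 FPKM. ANGPTL4, an inhibitor of lipoprotein lipase, was low in normoxia at 0.303 to 0.548 FPKM and reached 4.70, 10.9 and 21.8 FPKM. In all 3 genes the oligosome and polysome change exceeded the monosome change, while in ADM the polysome over oligosome ratio changed by -0.11. CA9, the carbonic anhydrase on the outer cell surface that hydrates carbon dioxide, went from 34.5, 34.5 and 107 FPKM to 125, 200 and 819 FPKM, 6.01-fold. CA12, its relative, was higher by 2.18 on the log2 scale. Among the other 5 measured genes of lactate, carbonic anhydrases and acid-base transport, none was called in the mean, and the TE of 2 was called lower. Of all loci, 12.7% were called higher and 13.6% lower in the mean, and 20.0% lower in TE. With so few genes, these counts were not tested against those shares.

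The increase in the hypoxia targets was not uniform in TE. The TE of 9 targets was called higher, against 16.7% of all loci, and that of 3 was called lower, against 20.0%. The median target went from a TE ratio of 1.42 in normoxia to 2.44. ANGPTL4 (TE change 2.17), NDRG1 (1.84), DDIT4 (1.33), ADM (1.32) and SLC2A1 (1.30) were on the higher side. BNIP3, which tags mitochondria for autophagy, and FAM162A, a mitochondrial protein induced by hypoxia, were both called higher in the mean and lower in TE. BNIP3 went from 77.1, 101 and 179 FPKM to 714, 601 and 741 FPKM. FAM162A went from 27.3, 36.4 and 72.5 FPKM to 596, 515 and 721 FPKM. In both genes the monosome fraction went up most, so the 3 fractions, unequal in normoxia, stood nearly level under stress. The demethylase KDM3A and the prolyl hydroxylase EGLN1, both oxygen-dependent enzymes that are themselves targets, had mean changes of 0.42 and 0.47 and a called TE change of 1.38 and 1.05.

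**Figure D1:**
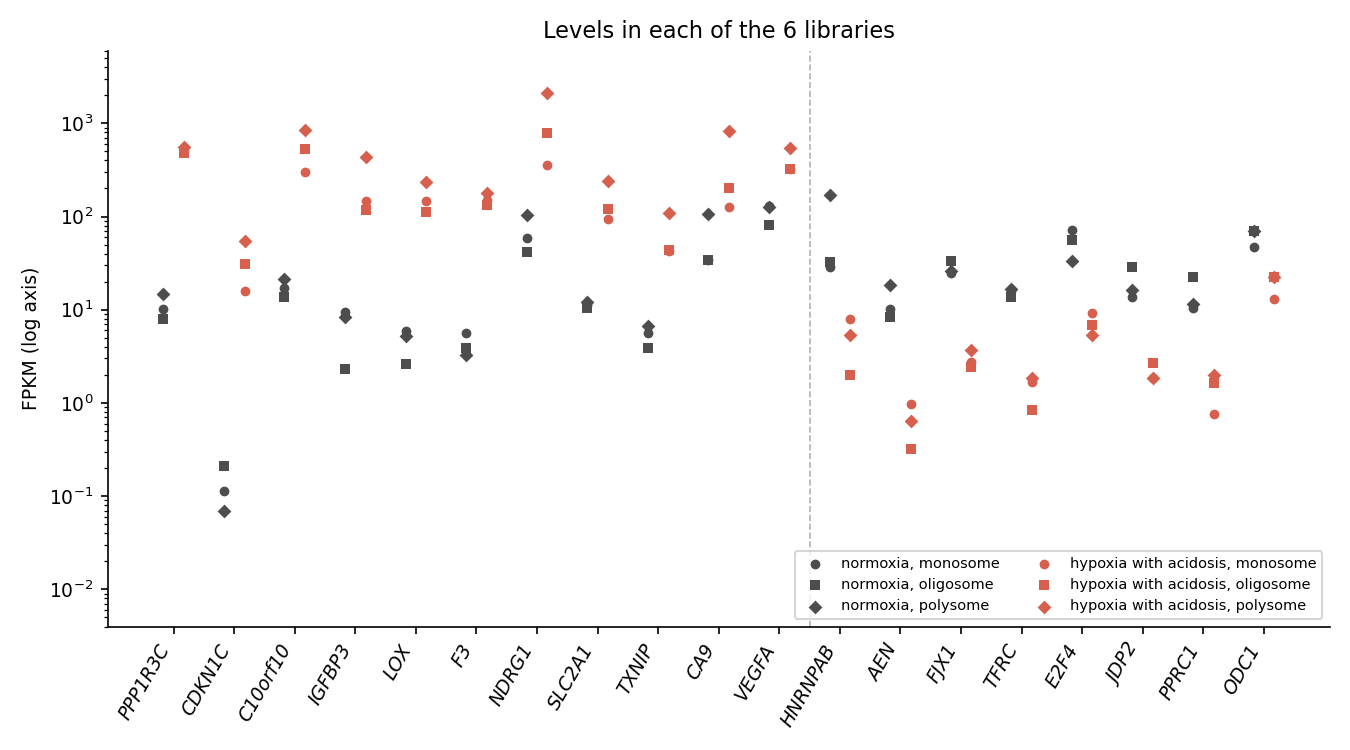
FPKM (log axis) of named genes in each of the 6 libraries, with grey for normoxia, red for hypoxia with acidosis, and a symbol per fraction. Left of the dashed line the 3 stressed libraries lie above the 3 controls in each gene, and right of it they lie below. Each point is 1 library, without error bars.

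Most measured glycolysis genes were higher. Of 16 genes, 9 were measured, 7 were called higher and none lower, against 12.7% and 13.6% of all loci, with a median change of 1.57. The phosphofructokinases PFKP (2.35), PFKL (1.53) and PFKM (1.25), which catalyse the committed step, were each called higher both in the mean and in TE, although the polysome over oligosome ratio of PFKL changed by -0.072. HK2, the inducible hexokinase, went from 8.59, 6.84 and 11.6 FPKM to 42.8, 35.2 and 105 FPKM. HK1, the constitutive hexokinase, went from 14.4, 17.5 and 24.5 FPKM to 10.1, 38.7 and 112 FPKM. HK1 thus was lower in the monosome and higher in the polysome fraction, with a TE change of 2.68. GAPDH, a glycolytic enzyme of very high level, went the opposite way in TE. It measured 2903, 813 and 2654 FPKM in normoxia and 71128, 24270 and 9152 FPKM in hypoxia with acidosis. Its mean was 15.4-fold higher, a log2 change of 3.94 that was 3.23 without the monosome and 4.57 without the polysome libraries. Its TE fell by 2.78 on the log2 scale, with most of the gain in the monosome library. The TE change of GAPDH lay between the oligosome and polysome fractions, since the ratio of oligosome over monosome changed by 0.34. GAPDH has many processed copies in the genome, and how the counting treated reads shared with them is not given in the sources used here.

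Genes of collagens and the extracellular matrix were also higher. Of 35 genes, 23 were measured, 16 were called higher and none lower, against 12.7% and 13.6% of all loci, with medians of 1.48, 1.71 and 1.89 in the monosome, oligosome and polysome fractions. TGFBI, an adhesion protein induced by TGF-β, went from 121, 82.1 and 72.3 FPKM to 1135, 1150 and 855 FPKM. SPARC, a collagen-binding glycoprotein, was higher by 2.59 on the log2 scale and COL1A1, a chain of type I collagen, by 1.28. Every stressed library of TGFBI exceeded every control library. VIM, the intermediate filament of mesenchymal and glial cells, went from 1337, 902 and 958 FPKM to 18545, 17254 and 6327 FPKM. Its antisense neighbour VIM-AS1 went from 18.7, 7.32 and 10.9 FPKM to 309, 254 and 66.9 FPKM. Whether the counting used strand is not given in the sources used here, so reads of VIM and VIM-AS1 cannot be told apart.

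Among the largest increases were also genes on none of the lists. CDKN1C, the cyclin-dependent kinase inhibitor p57, was nearly absent in normoxia at 0.112, 0.211 and 0.0690 FPKM and reached 16.0, 30.8 and 54.8 FPKM. IGFBP3, a carrier of insulin-like growth factors, went from 9.57, 2.29 and 8.45 FPKM to 148, 118 and 440 FPKM. F3, tissue factor, which starts blood clotting, went from 5.68, 3.93 and 3.28 FPKM to 151, 135 and 180 FPKM. For these 3 genes the change in the mean was between 4.79 and 4.85 on the log2 scale, and that of IGFBP3 was 5.42 without the monosome and 4.16 without the polysome libraries. CDKN1C was below 1 FPKM in normoxia, so raising each FPKM by 1 understates its change beside those of IGFBP3 and F3. C10orf10 (now DEPP1) and TSC22D3, a glucocorticoid-induced leucine zipper protein, were higher by 4.84 and 3.94. TXNIP, the inhibitor of thioredoxin that also limits glucose uptake, went from 5.60, 3.89 and 6.73 FPKM to 43, 43.6 and 110 FPKM. CDKN1A, the p53-regulated inhibitor p21, is on the list of p53 targets and had a mean change of 1.43, or 0.83 without the polysome libraries, and a TE change of 1.82.

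Large decreases were found in genes of varied function. HNRNPAB, an RNA-binding protein, measured 28.7, 32.7 and 169 FPKM in normoxia and 7.89, 1.98 and 5.37 FPKM in hypoxia with acidosis. Its polysome value thus dropped most, and the mean was 13.6-fold lower, a log2 change of -3.77 that was -2.53 without the polysome and -4.48 without the monosome libraries. TFRC, the transferrin receptor that imports iron, went from 15.8, 13.5 and 16.6 FPKM to 1.69, 0.835 and 1.87 FPKM, 7.05-fold lower and even across the fractions. FTL, the light chain of the iron store ferritin, went from 64495, 4513 and 1575 FPKM to 78847, 12844 and 5273 FPKM, with a TE change of 1.5. TFRC and FTL mRNAs both carry iron-responsive elements. The 3 stressed values of TFRC were all below the 3 controls, while FTL was higher in each fraction.

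NOP56, a core protein of box C/D small nucleolar ribonucleoproteins, went from 318, 32.6 and 18.6 FPKM to 32, 6.68 and 4.85 FPKM. AEN, a p53-induced nuclease, went from 10.3, 8.40 and 18.5 FPKM to 0.972, 0.319 and 0.644 FPKM. E2F4, a cell cycle transcription factor, went from 71.3, 55.5 and 33.6 FPKM to 9.31, 6.81 and 5.41 FPKM. In AEN and E2F4 every stressed library lay below every control. In NOP56 each fraction was lower, but its stressed monosome library lay above the polysome library of normoxia. FJX1, JDP2, GPATCH4, LSM10 and PPRC1, a coactivator of mitochondrial biogenesis, had mean changes between -3.16 and -2.77. RANBP3L (-4.84) and PLCB1 (-3.91) had nearly all of their normoxia level in the monosome library, at 213 and 55.7 FPKM, and were listed at 0 in the oligosome and polysome libraries of the stressed cells. Without the monosome libraries their changes were -3.0 and -0.32.

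DNA replication was the list with the lowest median in the mean, at -1.06. Of 39 genes, 30 were measured, 16 were called lower and 2 higher, against 13.6% and 12.7% of all loci. PCNA, the sliding clamp, went from 31.5, 25.5 and 178 FPKM to 14.0, 9.76 and 24.6 FPKM, which was 4.96-fold lower, a log2 change of -2.31 that was -1.3 without the polysome libraries. E2F1, the activator of S-phase genes, went from 56.9, 79.0 and 21.4 FPKM to 8.08, 16.1 and 11.1 FPKM. MCM6 (-1.89), GINS1 (-2.03) and ORC6 (-1.80), parts of the helicase and the origin recognition complex, were also called lower. DNA repair had 8 of 17 measured genes called lower and 1 higher, with a median of -0.98. Mitosis genes gave a different picture, with 0 of 25 measured called in either direction and a median of -0.15. Ribosome biogenesis had 8 of 23 called lower and 1 higher, with a median of -0.67.

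**Figure D2:**
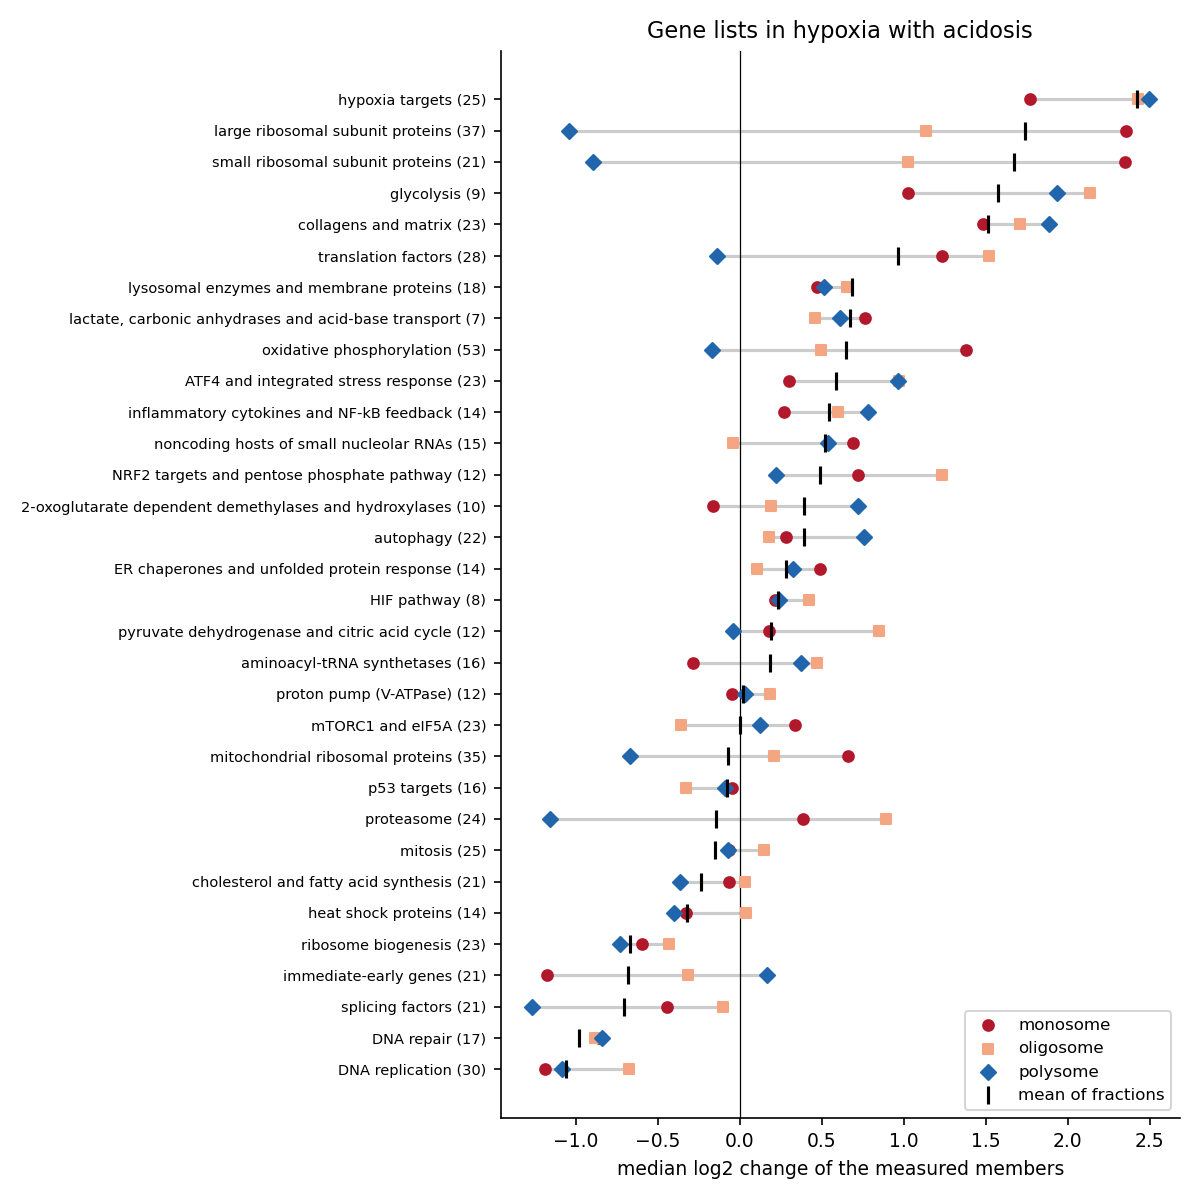
Median log2 change of the measured members of each gene list (number measured in brackets) in the monosome (red circles), oligosome (orange squares) and polysome (blue diamonds) fractions, with black bars for the mean of the fractions. Hypoxia targets and matrix genes lie to the right in every fraction and DNA replication to the left, while ribosomal proteins run from 2.35 in the monosome to -1.04 (large subunit) and -0.90 (small subunit) in the polysome fraction.

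The fractions also changed relative to each other. The TE of 2069 loci (16.7%) was called higher and that of 2469 (20.0%) lower. Of the 2469, 1789 also went down at both steps, from monosome to oligosome and from oligosome to polysome. At 196 loci the monosome value was at least 2-fold higher and the polysome value at least 2-fold lower, and at 40 loci the reverse held.

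The ribosomal protein lists had the lowest TE medians of the lists. Of 46 large-subunit genes, 37 were measured, and the TE of 33 was called lower and of 1 higher. Of 32 small-subunit genes, 21 were measured, and the TE of 18 was called lower and of 1 higher. The TE of 20.0% of all loci was called lower and that of 16.7% higher. The median large-subunit gene changed by 2.35 in the monosome, 1.14 in the oligosome and -1.04 in the polysome fraction, and its TE changed by -3.56. The small-subunit medians were 2.35, 1.02 and -0.90, with a TE change of -3.31. The TE ratio of the median large-subunit gene was 0.371 in normoxia and 0.0335 in hypoxia with acidosis. After the submitters' RNA factors were applied, the polysome fraction held 39.6% of its signal in normoxia and 6.94% under stress. Ribosomal protein genes have many processed copies, and 73 compared loci are processed pseudogenes named for them. Those had a median TE change of -2.76, and reads could not be assigned to gene or copy here. The mean of the fractions of these genes rested on the monosome libraries. Their median change in the mean was 1.74 for the large and 1.67 for the small subunit, and 0.46 and 0.50 without the monosome libraries.

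RPL32, a protein of the large subunit, went from 2380, 931 and 1163 FPKM to 20085, 2525 and 246 FPKM. RPL12 went from 2019, 693 and 476 FPKM to 16873, 1384 and 133 FPKM. RPS7, of the small subunit, went from 1306, 577 and 786 FPKM to 9548, 1502 and 182 FPKM. All 3 genes were higher in the monosome and oligosome libraries and lower in the polysome library. RPL22L1, a paralogue of RPL22, had the lowest TE change of the genes named here, at -5.54. It went from 926, 1448 and 672 FPKM to 7232, 1271 and 108 FPKM. In RPL22L1 the oligosome library did not share the gain of the monosome library.

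TOP mRNAs start with C followed by pyrimidines. The first 20 bases of the annotated RefSeq mRNA starts (GRCh38.p14) are shown for ribosomal protein genes with low TE and, for contrast, for SLC25A5, another gene with low TE, and HGS and MAP3K6, with high TE. The unbroken pyrimidine run at the start is in capitals.
RPL12: CCTCTCggctttcggctcgg
RPL35A: CTTCTCTTaccgccatcttg
RPL22L1: CTCTCTgctctcgcggccga
RPS7: CTCgcgctgtttccgcctct
RPL27: agcggaagtgtccttctttc
SLC25A5: CCCCgcagcgccggagtcaa
HGS: gcgccagctcgtagcagggg
MAP3K6: acaagtgaaggcagggcagc
They lie at chr9:127451387-127451406 (minus), chr3:197950190-197950209 (plus), chr3:170870176-170870195 (minus), chr2:3575260-3575279 (plus), chr17:42998419-42998438 (plus), chrX:119468444-119468463 (plus), chr17:81684011-81684030 (plus) and chr1:27366942-27366961 (minus). RPL12, RPL35A and RPL22L1 begin with a C and at least 4 more pyrimidines, taken here as a TOP start, while RPS7 and RPL27 do not at the annotated base. The annotated base can miss the start used in these cells.

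A TOP start stood in 4.07% of all promoters in the table and in 5.78% of the compared coding genes with a single start. It was found in 16 of 21 large-subunit and 10 of 14 small-subunit genes, and in 40.6% of the 69 genes whose TE was at least 8-fold lower. Outside the ribosomal protein and translation factor lists, 226 genes had a TOP start. Their median TE change was -0.46, and 38.5% of them were called lower in TE. Of the 4220 such genes without a TOP start, 19.6% were called lower, with a median of -0.06. Among genes with the shortest transcripts, described below, the shares were 74.0% of 50 and 34% of 884. TOP starts also went with the mean, at 12.1% of the genes called higher and 0.955% of those called lower. Within the ribosomal protein lists, the 26 genes with a TOP start had a median TE change of -3.28 and the 9 without one -3.85.

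**Figure D3:**
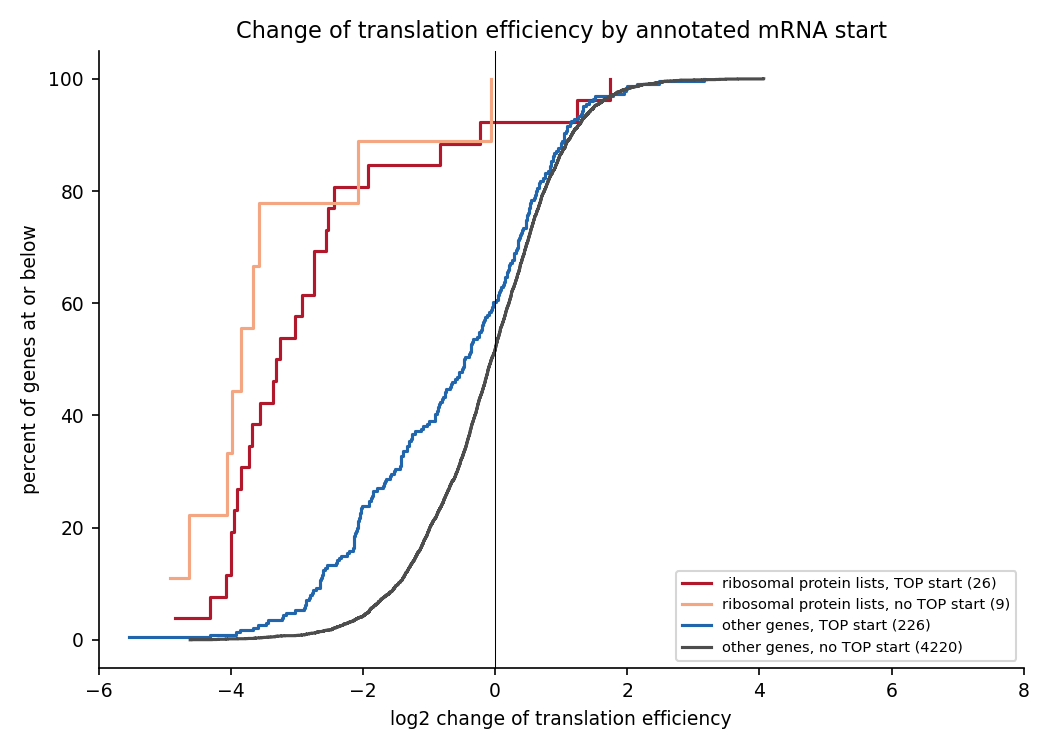
Cumulative share of genes (percent) by log2 change of TE, for genes of the ribosomal protein lists and for other genes, each with and without a TOP start at the annotated base. The curve of the 226 other genes with a TOP start lies left of that of the 4220 without one, and both ribosomal protein curves lie further left.

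Translation factors differed among themselves. Of 28 measured, 7 were called higher and 3 lower in the mean, against 12.7% and 13.6% of all loci. The TE of 13 was called lower and of 3 higher, against 20.0% and 16.7% of all loci. Of 11 measured subunits of eIF3, the complex that recruits the small ribosomal subunit, 5 were among the 13. EIF3H went from 166, 68.1 and 127 FPKM to 1446, 343 and 76.3 FPKM, and the TE of EIF3K, EIF3I and EIF3G changed by -3.12, -2.82 and -2.66. EIF3D had a TE change of -0.18 and EIF3A of 1.75, and the oligosome over monosome ratio of EIF3I changed by 0.105. EEF2, the elongation factor that moves the ribosome along, went from 408, 321 and 172 FPKM to 1391, 2308 and 1203 FPKM, with a TE change of 1.08 and a polysome over oligosome change of -0.044. The elongation factor genes EEF1A1, EEF1B2 and EEF1D had TE changes of -0.63, -2.08 and -2.51. PABPC1, the poly(A)-binding protein, went from 4094, 1021 and 294 FPKM to 1729, 2354 and 785 FPKM, and its TE change was 2.71.

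In TE, mitochondrial genes shared the direction of the ribosomal proteins with a smaller size. Of 53 measured oxidative phosphorylation genes, the TE of 33 was called lower and of 1 higher, against 20.0% and 16.7% of all loci. Their median TE change was -1.32. The TE of 27 of 35 mitochondrial ribosomal proteins was called lower and of none higher, with a median of -1.48. COX5A, a subunit of cytochrome oxidase, went from 126, 132 and 296 FPKM to 947, 342 and 109 FPKM. UQCRB, a subunit of complex III, went from 193, 366 and 242 FPKM to 1540, 663 and 129 FPKM. SLC25A5, the ADP/ATP carrier, which is not on that list, went from 220, 129 and 552 FPKM to 2635, 1045 and 262 FPKM. In these 3 genes the monosome value was up and the polysome value down. The medians of the 53 genes were 1.38 in the monosome, 0.49 in the oligosome and -0.17 in the polysome fraction. In the polysome fraction 7 of them were at least 2-fold lower and 4 at least 2-fold higher. The shares of all loci there were 12.9% and 14.5%. In the mean, 7 of the 53 oxidative phosphorylation genes were called higher, near the 12.7% of all loci, and none lower, against 13.6%. Their median change in the mean was 0.65, or 0.215 without the monosome libraries. None of 25 mitochondrial ribosomal protein genes with a single annotated start had a TOP start, and 4 of 36 oxidative phosphorylation genes had one.

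The proteasome and splicing lists were low in the polysome fraction without a comparable gain in the monosome fraction. The proteasome medians were 0.38, 0.89 and -1.16. The TE of 19 of 24 measured genes was called lower and of 1 higher, against 20.0% and 16.7% of all loci. PSMA5, a subunit of the core particle, went from 23.2, 19.4 and 78.1 FPKM to 145, 39.4 and 24.2 FPKM. The splicing factor medians were -0.44, -0.10 and -1.27, and all 21 measured genes lay below the median locus in the polysome fraction. SRSF7, a serine- and arginine-rich splicing factor, went from 89.1, 43.4 and 123 FPKM to 26.5, 15.0 and 19.1 FPKM. For both lists the drop lay between the oligosome and polysome fractions, since the median change of the oligosome over monosome ratio was 0.14 for the proteasome and 0.15 for splicing factors. None of the 16 proteasome genes with a single start had a TOP start.

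Transcript length went with the TE change. Coding genes were put in 5 equal bins by their longest GENCODE transcript. In the shortest bin, 312 to 2106 bases, 35.8% of 1486 genes were called lower in TE, with a median of -0.49. In the longest bin the share was 12.9% and the median 0.08. When both ribosomal protein lists, the mitochondrial ribosomal proteins, oxidative phosphorylation and the proteasome were left out, 32.9% of the 1385 remaining short genes were called lower. The longest annotated transcript of a gene need not be the one these cells used, so a gene can fall in too long a bin. Ribosomal protein genes with a TOP start had a median of 2010 bases, near the edge of the shortest bin. The bins use transcript length and not the length of the coding sequence, which sets how many ribosomes a fully loaded mRNA can hold. The part of length in the TE changes of the lists was not tested beyond these shares.

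**Figure D4:**
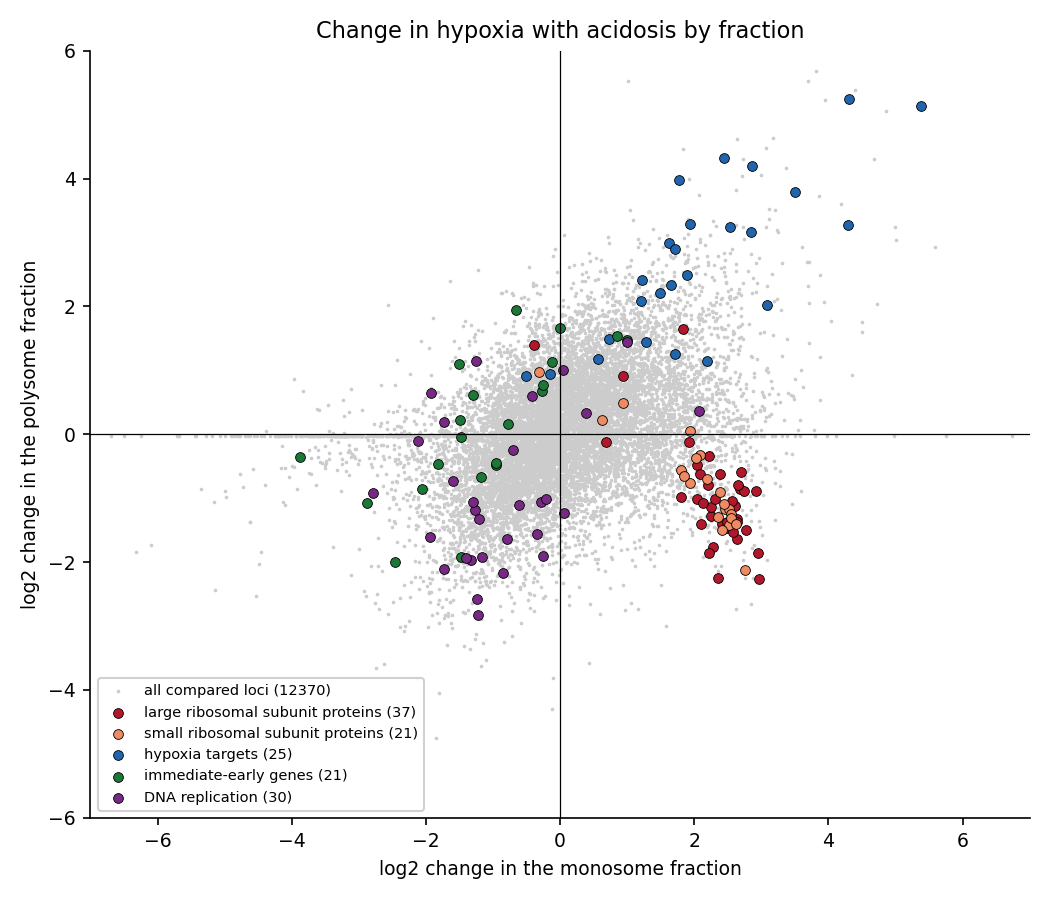
Log2 change in the monosome (x) and polysome (y) fraction of all 12370 compared loci (grey; 23 lie outside the axes) and of 5 gene lists (coloured). Ribosomal proteins cluster at lower right, hypoxia targets at upper right, DNA replication mostly at lower left, and immediate-early genes mostly left of 0 in the monosome fraction.

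Immediate-early genes had the opposite TE pattern. These are transcription factors and phosphatases with short-lived mRNAs that respond within minutes to growth signals. Of 21 measured, the TE of 11 was called higher and of none lower, against 16.7% and 20.0% of all loci. The TE change of 20 lay above the median locus. The median was -1.18 in the monosome and 0.17 in the polysome fraction. EGR1, a zinc finger factor, went from 43.2, 18.5 and 5.18 FPKM to 2.25, 2.95 and 3.91 FPKM. JUNB, a partner in AP-1, went from 79.6, 36.2 and 31.6 FPKM to 54.0, 77.2 and 127 FPKM. DUSP1, which dephosphorylates MAP kinases, went from 28.9, 25.7 and 19.3 FPKM to 10.4, 35.9 and 43.3 FPKM. The order of the fractions was thus turned around in all 3 genes, from a monosome maximum in normoxia to a polysome maximum under stress. In the mean, 6 of the 21 were called lower and 2 higher, against 13.6% and 12.7% of all loci. FOSL1 (-1.69), SPRY2 (-2.24) and IER2 (-2.04) were among the 6.

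Other high TE changes were found in genes of varied function. MAP3K6, a kinase upstream of the stress-activated MAP kinases, went from 10.1, 3.43 and 4.74 FPKM to 2.24, 8.16 and 19.5 FPKM. HGS, a sorting protein of endosomes, went from 42.2, 20.3 and 15.8 FPKM to 10.1, 28.1 and 45.9 FPKM. In both the monosome value was down and the polysome value up, and the TE changes were 3.67 and 3.49. POMGNT1, a glycosyltransferase of dystroglycan (3.56), LRPPRC, which stabilises mitochondrial mRNAs (3.15), and UNC45A, a myosin chaperone (3.04), were of similar size. The TE of 5 of 10 measured oxygen- and 2-oxoglutarate-dependent demethylases and hydroxylases was called higher and of none lower, against 16.7% and 20.0% of all loci. KDM4B was at 1.64 and KDM5A at 1.54. The 5 include KDM3A and EGLN1, which were also counted among the hypoxia targets.

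**Figure D5:**
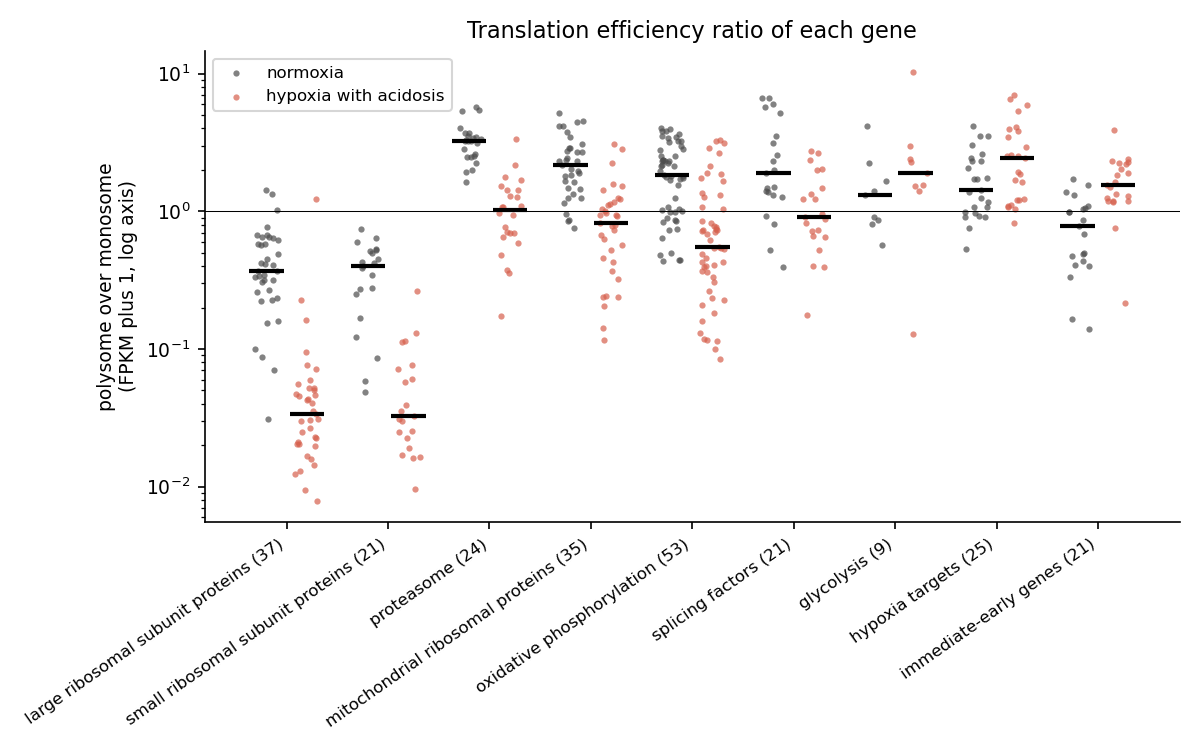
Polysome over monosome ratio (each FPKM plus 1, log axis) of every measured gene in 9 lists in normoxia (grey) and in hypoxia with acidosis (red), with black bars for medians. The median large-subunit gene went from 0.371 to 0.0335 and the median hypoxia target from 1.42 to 2.44.

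The integrated stress response, in which ATF4 is translated when initiation is limited, gave a mixed picture. Of 23 measured genes, 9 were called higher and 4 lower in the mean, against 12.7% and 13.6% of all loci. The TE of 8 was called higher and of 3 lower, against 16.7% and 20.0% of all loci. ATF4 itself went from 245, 210 and 61.1 FPKM to 429, 298 and 114 FPKM, a mean change of 0.61 with a TE change of 0.13. DDIT3, the factor CHOP, and PPP1R15A, the GADD34 subunit that restores initiation, both have upstream reading frames in their mRNAs. DDIT3 went from 40.4, 72.1 and 13.4 FPKM to 43.3, 96.2 and 38.5 FPKM. PPP1R15A went from 32.8, 49.3 and 14.3 FPKM to 26.5, 58.0 and 58.5 FPKM. The gain of both was largest in the polysome fraction, with TE changes of 1.41 and 2.31. Among ATF4 targets, ASNS (2.53) and PHGDH (2.63), enzymes of asparagine and serine synthesis, were called higher, and SESN2 (-1.77), PSPH (-1.79) and CEBPG (-1.86) lower.

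Regulators of mTORC1 and the polyamine pathway that makes hypusinated eIF5A had 5 of 23 measured genes called higher and 5 lower, against 12.7% and 13.6% of all loci. DDIT4, the inhibitor of mTORC1 known as REDD1, went from 125, 109 and 178 FPKM to 416, 761 and 1440 FPKM. ODC1, the first enzyme of polyamine synthesis, went from 47.2, 70.3 and 69.1 FPKM to 12.9, 22.6 and 22.7 FPKM. AMD1, which supplies the aminopropyl groups, was lower by a change of -2.34, and EIF5A had a change of -1.29. SAT1, which acetylates polyamines for export, had a change of 1.87, and SMS, spermine synthase, of 1.78. Synthesis steps upstream (ODC1, AMD1) were thus lower and SMS and SAT1 higher in the same libraries.

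Lists tied to acidity and proteostasis are set beside all loci, of which 12.7% were called higher, 13.6% lower and 20.0% lower in TE. These lists are small, and their counts were not tested against those shares. In the V-ATPase proton pump, 1 of 12 genes was called higher and 1 lower. They were ATP6V1F at 1.24, or 0.31 without the monosome libraries, and ATP6V0D1 at -1.26, or -0.48 without the polysome libraries. The TE of 4 of the 12 was called lower, with a median of -0.74. Lysosomal genes had 1 of 18 called higher, while 15 lay above the median locus, with a median of 0.68. In ER chaperones and the unfolded protein response 1 of 14 was called higher, P4HB at 1.67. Heat shock proteins split, with 4 of 14 called each way. HSP90AB1 went from 113, 102 and 93.2 FPKM to 963, 1143 and 646 FPKM, while HSP90AA1 went from 72.9, 103 and 150 FPKM to 27.2, 39.8 and 98.3 FPKM. These close paralogues of the cytosolic chaperone Hsp90 thus went opposite ways in every fraction. Inflammatory and NF-κB feedback genes had 3 of 14 called higher, NFKB2 (2.34), RELB (1.35) and NFKBIA (1.31), and none lower.

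Markers of other cell types gave values beside these changes. KRT18, a keratin of simple epithelia, went from 0.758, 0.461 and 0.172 FPKM to 25.1, 0.549 and 0.252 FPKM. Only its monosome library moved. KRT8, its partner, went from 23.4, 9.58 and 1.16 FPKM to 111, 32.5 and 6.68 FPKM, and GAD1, an enzyme of GABA synthesis, had a mean change of 1.46, or 0.80 without the monosome libraries. The part of other cells in any result was not tested, and the defining markers at 0 are named above.

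Acidosis alone and hypoxia alone were each sequenced in the same way and share the 3 normoxia libraries with this comparison, so the changes are set side by side and no overlap is drawn from them. The median hypoxia target changed by 0.14 in acidosis, 2.25 in hypoxia and 2.42 in both. The median TE change of the large-subunit proteins was -2.17, -2.43 and -3.56 in the same order. For the proteasome it was -0.26, -0.35 and -1.78, and for mitochondrial ribosomal proteins 0.06, -0.67 and -1.48. Over all compared loci the spread also widened in that order. The standard deviation was 0.589, 0.806 and 1.06 for the change in the mean. For the TE change it was 0.839, 1.11 and 1.32. Under other settings the combined median of the hypoxia targets ranged from 2.03 to 2.52, which takes in the 2.25 of hypoxia. With this wider spread, the combined value was the largest in size for each of these lists. It was not so for the mean of the glycolysis genes (0.25, 1.58 and 1.57), the matrix genes (0.64, 1.59 and 1.51) or the lysosomal genes (0.27, 0.78 and 0.68). The immediate-early genes had a median mean change of 0.50 in acidosis, 0.40 in hypoxia and -0.68 in both. The sign for the combined stress thus differed from that of either one, but the size rested on the monosome libraries. Without them the combined value was -0.10, and the median in the polysome fraction was 0.17.

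Single genes fell into several patterns across the 3 comparisons, each with 1 library per fraction. Near the value of hypoxia alone were IGFBP3 (-0.02 in acidosis, 5.10 in hypoxia, 4.83 in both) and F3 (0.66, 4.98 and 4.79). VEGFA (0.48, 2.35 and 1.72) and CA9 (0.74, 3.19 and 2.59) were lower with both stresses than with hypoxia alone. CDKN1C (0.43, 0.87 and 4.85), PPP1R3C (0.74, 2.36 and 5.34) and TSC22D3 (1.19, 1.46 and 3.94) were higher with both than the 2 single changes added together. Raising each FPKM by 1 understates all 3 values of CDKN1C, which was nearly absent in normoxia. The single changes were not recomputed with another pseudocount. TXNIP (2.70, 1.51 and 3.28) was raised in each. Among the decreases, TFRC (-0.24, -0.79 and -2.82), HNRNPAB (-1.0, -0.72 and -3.77) and EGR1 (1.61, 0.33 and -2.62) had their lowest value with both, where EGR1 was at -1.58 without the monosome libraries. Apart from 12 set genes, the genes were named for the size of their change in the combined comparison. That choice by itself favours a larger value with both stresses. No error is attached to these differences.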

How the data were processed

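Per the submitters' processing notes, bcl2fastq, STAR 2.5.0, Cufflinks 2.2.1, Cuffnorm and GRCh38 were used. The authors deposited FPKM per assembled locus, and how Cuffnorm scaled the libraries is not given in the sources used here. A scaled signal was deposited too, which per the file headers is FPKM times 1 factor per library for its RNA content. The factors were recovered from those columns (tolerance 1e-06) and used as an alternative scaling and for shares of signal. The other columns of that sheet were not used.

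A pseudocount of 1 FPKM was added before log2 ratios, which understates changes of low loci. Changes were centred on the median of the compared loci. Calls used 2-fold. Simulated data with known changes were used to check the calls. Relative depth came from the most frequent ratio to the normoxia monosome library among loci of low FPKM in every library. Fragments per FPKM were calibrated from whole-number steps between FPKM values at 74 loci of transcripts of at least 1000 bases.

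Genes named in the text came from a rule. It took the 12 largest changes of the mean and 10 of TE each way, 3 per fraction, up to 5 per gene list and 12 set genes, at a mean of at least 5 FPKM outside the lists. The comparison, the 36 gene lists and the rule were chosen with earlier results of these data known. Loci naming several genes, names on several loci, clone names, pseudogenes and small RNAs were not named. A few genes of the lists are not reported by name here. Gene types came from GENCODE v29, older names and sequences from RefSeq. Alternatives changed the pseudocount, filter, centring, scaling, weighting, fraction used, ratio and threshold. Python 3.11.15, numpy 2.4.6, pandas 2.3.3 and matplotlib 3.10.9 were used.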

Additional observations from a re-analysis of the deposited data

Results flagged for a closer look

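For 3 gene lists the median moved more than 1.5-fold up in the monosome fraction and more than 1.5-fold down in the polysome fraction, so their effect differed in direction between fractions. The median TE change was -3.56 for large-subunit and -3.31 for small-subunit ribosomal proteins, and -1.48 for mitochondrial ribosomal proteins. With 1 library per fraction, the difference between fractions was not tested.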

How the results depend on the processing

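No paired analysis was possible because each group has 1 library. With no replicates, spread between cultures is unknown, and all sizes compare single libraries. Of 88 counts recomputed under the alternatives, 60 stayed within 1.5 times, and the other 28 follow. With a pseudocount of 5 FPKM, 793 monosome loci were 2-fold lower, 1259 oligosome loci higher and 588 lower, 940 polysome loci higher and 730 lower, 864 loci were called higher and 561 lower in the mean, and 1095 higher and 1636 lower in TE. Counting loci of at least 5 FPKM, fewer of which exist, gave 1581 higher in the monosome and 1314 in the oligosome fraction, 908 higher and 1055 lower in the mean, and 1593 lower in TE. Loci naming 1 gene gave 1293 lower in the monosome fraction and 1368 higher in TE. The submitters' RNA scaling without centring gave 774 higher and 5412 lower in the oligosome fraction. It also gave 3047 lower in the polysome fraction, 2549 lower in the mean and 3830 lower in TE. TE from polysome over oligosome gave 1110 higher and 1626 lower, and from oligosome over monosome 1294 and 1430. At 4-fold, 285 were called higher and 315 lower in the mean, and at 1.5-fold 3494 were higher in TE.

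Of 1512 list medians recomputed, 128 changed sign, 42 of them under the submitters' RNA scaling without centring. Another 17 each did so in oligosome over monosome and at a mean of at least 5 FPKM. Of the medians past 2-fold, 2 changed sign, the proteasome (0.14) and splicing factors (0.15) in oligosome over monosome. The median of the hypoxia targets in the mean ranged from 2.03 to 2.52, and the TE median of the large-subunit proteins from -4.01 to -1.06. That of the immediate-early genes in the mean was -0.10 without the monosome fraction. Of 1793 values of named genes, 53 changed sign, 12 of them from past 2-fold. Without the monosome fraction the mean of RPL27 was -0.037 and that of RPL22L1 -0.66, which was also -0.057 as a mean of log2 changes. In TE, RANBP3L was -0.24 with a pseudocount of 0.1 FPKM. Polysome over oligosome gave -0.11 for ADM, -0.044 for EEF2 and -0.072 for PFKL. Oligosome over monosome gave 0.105 for EIF3I, 0.52 for VIM, 1.02 for VIM-AS1, 0.34 for GAPDH and 0.13 for ATP6V0D1. The cause was not tested. Without the monosome fraction the mean also moved by over 1.5-fold for 27 named genes, among them NOP56 (-2.01), EGR1 (-1.58), GAD1 (0.80) and KRT18 (0.05), without the polysome fraction for 23, among them IGFBP3 (4.16) and ANGPTL4 (2.52), and without the oligosome fraction for 3, among them LSM10 (-2.56).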
